A study of Mus musculus with 6 samples.

Results

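The rows described here are 7 transcripts of the mouse anterior hypothalamus that stood far apart between total RNA and RNA bound to phosphorylated ribosomes: Mtrnr2l, Cdr1, Snhg11, Gm4076, LOC100502983, Pwwp2a and Lars2. They were found by symbol among 13724 gene rows, and all 7 were listed once. They had been picked because of their measured RPKM (reads scaled to gene length and library size) in these same libraries, so the values that separate input from immunoprecipitate chose the members and are given as a description, with no test. Of the 7, 6 were lower in the immunoprecipitate and 1, Lars2, was higher.

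The study used wild type C57Bl6/J mice kept at warm temperatures in 3 numbered warm challenges. Ribosomal protein S6 becomes phosphorylated in active neurons, and an antibody against S6 phosphorylated at 244 and 247 pulled down ribosomes with their RNA, a method called PhosphoTRAP. Each challenge gave 1 library of total RNA (input) and 1 of RNA bound to phosphorylated S6 (IP), so each group held 3 libraries. All mice were warm and of 1 genotype, so neither temperature nor genotype differs between the groups; the labels used here give no age, sex or number of mice per library. The labels name preoptic neurons, while the dissected piece was a block of anterior hypothalamus, which also holds glia and vessels.

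Pulling down ribosomes selects RNA that is attached to them, above all messenger RNA under translation. Long noncoding RNAs, many of which stay in the nucleus, are read in total RNA without being translated. Mtrnr2l is a nuclear gene named for its likeness to the mitochondrially encoded 16S ribosomal RNA, and RefSeq lists the name as a synonym of Gm20594. Cdr1 encodes a protein first known as an antigen in cerebellar degeneration, and from its opposite strand neurons make a circular RNA that binds the microRNA miR-7. Snhg11 is a long noncoding RNA that hosts small nucleolar RNAs in its introns. Pwwp2a is a chromatin protein that binds the histone variant H2A.Z. Lars2 is the enzyme that loads leucine onto the tRNA of mitochondria. Gm4076 and LOC100502983 are predicted gene models without a known function.

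Of the 7 symbols, 5 matched the RefSeq table (assembly GRCm38.p6): Mtrnr2l, Cdr1, Snhg11, Pwwp2a and Lars2. It lists Snhg11 as a long noncoding RNA and the other 4 as protein-coding, so by annotation 1 of the 5 is noncoding. The sequences below are from RefSeq, GRCm38.p6, and cover the 250 bases before each annotated start. Cdr1 is shown because its own strand repeats the seed letters of miR-7, and both miR-7 forms are given for comparison, with the seed (bases 2 to 8) in capitals. In the Cdr1 line (chrX:61185559-61185808, minus strand) the capitals mark GGAAGAC.
mmu-miR-7a-5p: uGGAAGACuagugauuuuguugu
mmu-miR-7b-5p: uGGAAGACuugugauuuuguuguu
Cdr1: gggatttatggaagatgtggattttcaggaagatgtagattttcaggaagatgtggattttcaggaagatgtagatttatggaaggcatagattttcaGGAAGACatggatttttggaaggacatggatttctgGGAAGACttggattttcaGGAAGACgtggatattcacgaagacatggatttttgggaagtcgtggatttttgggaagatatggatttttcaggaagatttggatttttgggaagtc

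GGAAGAC stood 3 times on the Cdr1 strand of this window and 0 times in the reverse direction (GTCTTCC), so an RNA of the opposite strand would read GTCTTCC, the complement of the miR-7 seed, 3 times. Of 32817 windows of the same length in the table, 4.31% held GGAAGAC on either strand, and 2 windows, Cdr1 among them, held it 3 or more times in the forward direction. The shorter GGAAGA, which overlaps it, stood 9 times in the Cdr1 window and was found on either strand in 22.8% of all windows. These are letter matches in a genomic window, and the circular RNA itself was not measured. The sources used here do not say whether reads were counted by strand, so the Cdr1 row cannot be told apart from RNA of the opposite strand.

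Mtrnr2l (chr6:79817781-79818030, plus strand) and Lars2 (chr9:123366677-123366926, plus strand) are shown because they held the highest levels in the 2 fractions, and their upstream windows differ in base composition. Here the capitals mark CG pairs.
Mtrnr2l: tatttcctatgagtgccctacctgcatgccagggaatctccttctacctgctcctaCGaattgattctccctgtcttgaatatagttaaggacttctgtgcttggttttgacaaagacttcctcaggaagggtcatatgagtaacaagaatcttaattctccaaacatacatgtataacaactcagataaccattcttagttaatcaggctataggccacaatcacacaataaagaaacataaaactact
Lars2: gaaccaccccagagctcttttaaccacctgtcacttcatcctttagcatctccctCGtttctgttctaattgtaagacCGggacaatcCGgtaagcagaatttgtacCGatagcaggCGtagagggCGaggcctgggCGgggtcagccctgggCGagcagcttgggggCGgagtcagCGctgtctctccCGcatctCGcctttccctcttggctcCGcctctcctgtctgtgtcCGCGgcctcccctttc

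The Mtrnr2l window was 38.4% G and C with 1 CG pair, and the Lars2 window 59.2% with 15. Snhg11 (59.6%, 18 pairs) and Pwwp2a (59.2%, 14 pairs) resembled Lars2, and Cdr1 (38.4%, 3 pairs) resembled Mtrnr2l. Over all windows the medians were 52.4% and 6 pairs. Of the rows with similar windows, Snhg11 and Pwwp2a were low in IP and Lars2, the only row high in IP, was high. Whether upstream base composition bears on the fractions was not tested.

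Summed RPKM was 374708 to 496125 per library. RPKM holds no read counts, so absolute depth is unknown; relative depth, read from the spacing of values under 0.6 RPKM, was 1 (input 1) to 1.59 (IP 2). The activity genes Fos and Fosb, used to check the fraction labels, were higher in IP, with log2 folds of 2.42 (limma, adjusted p = 0.0161) and 4.08 (adjusted p = 0.000308). Folds throughout are differences of mean log2(RPKM + 1), IP minus input, from limma, and they understate the change of low rows. Of 12328 rows with at least 1 RPKM in 3 or more libraries, 4.19% passed an adjusted p of 0.05 (Benjamini-Hochberg), 406 lower in IP (3.29%) and 110 higher (0.892%). IP 1 stood apart: without it 1693 rows passed, against 21 to 94 without any other single library. All 7 members passed the filter on low values, and 5 of them passed the threshold, all lower in IP (6 with the warm challenge as a block, where 5.32% of all rows passed). Snhg11 and Lars2 did not pass. The count was 4 with libraries scaled to a common median, 6 without IP 1 and 2 or 3 without any other single library. In all 7 the input and IP ranges did not overlap, as in 30.4% of all rows (23.5% lower and 6.85% higher in IP). As the members were chosen on this contrast, these counts support nothing.

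**Figure D1:**
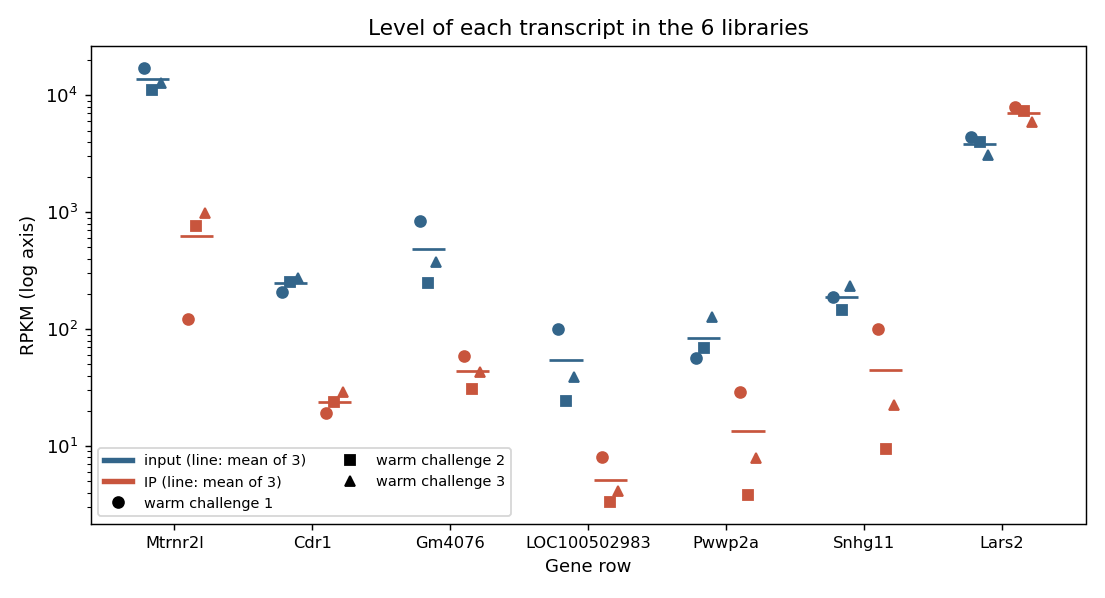
RPKM (log axis) of the 7 transcripts in the 6 libraries, with input in blue, IP in red, symbols for the warm challenge and a line at each mean of 3. Input and IP do not overlap for any transcript, and Lars2 alone is higher in IP, at 5969 to 7941 RPKM against 3063 to 4375.

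Mtrnr2l was the highest row in every input. It stood at 17244, 11165 and 12764 RPKM in inputs 1, 2 and 3, and at 122, 770 and 983 RPKM in IP 1, 2 and 3. The inputs lay within 1.54-fold of each other, while the IP libraries spanned 8.09-fold because of the low value in IP 1. The input mean was 13724 ± 3151 RPKM and the IP mean 625 ± 449 RPKM (SD over 3 libraries each), a 22.0-fold difference and a log2 fold of -4.90 (SE 0.76), the lowest of all rows tested. Within the warm challenges the input exceeded IP 142-fold in challenge 1, 14.5-fold in challenge 2 and 13.0-fold in challenge 3. Without IP 1 the log2 fold was -3.95, so the size rests in part on that library. Its rank fell from 1 in each input to 555, 92 and 35 in IP 1, 2 and 3. It was the only row among the symbols searched for mitochondrial and ribosomal RNA, and whether reads of the mitochondrial 16S RNA were counted in it was not tested.

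Lars2 ran the other way. It stood at 4375, 3978 and 3063 RPKM in inputs 1, 2 and 3, and at 7941, 7318 and 5969 RPKM in the matching IP libraries. The input mean was 3805 ± 673 RPKM and the IP mean 7076 ± 1008 RPKM (SD over 3 libraries each), and IP exceeded input 1.82-, 1.84- and 1.95-fold in the 3 challenges. These 3 ratios were closer to each other than those of any other member, although the levels themselves differed between challenges. The log2 fold was 0.90 (SE 0.54), 0.75 to 1.02 over the omission of single libraries, and 1.42 after quantile normalization. The SE of the fit, which pools rows of like level, was wider than the spread of Lars2 itself, whose log2 values had an SD of 0.27 in input and 0.21 in IP. Lars2 ranked 2, 2 and 4 in the inputs and 1 in each IP library. In IP 3 it stood 1.11-fold above the next row, Snap25, a synaptic vesicle release gene, and in IP 1 it stood 2.43-fold above Gapdh, a glycolytic enzyme.

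Mtrnr2l and Lars2 thus stood in opposite order in the fractions. Mtrnr2l exceeded Lars2 by 2.81- to 4.17-fold in the inputs, and Lars2 exceeded Mtrnr2l by 6.07- to 65.3-fold in the IP libraries. As a share of summed RPKM, Mtrnr2l took 3.63%, 2.35% and 3.32% of inputs 1, 2 and 3 and 0.0324%, 0.155% and 0.225% of IP 1, 2 and 3. Lars2 took 0.920%, 0.836% and 0.797% of the inputs and 2.12%, 1.48% and 1.36% of the IP libraries. The 7 rows together took 4.19% ± 0.77 of each input and 1.82% ± 0.34 of each IP library (SD, n = 3 each). Without Lars2 the shares were 3.34% ± 0.74 and 0.170% ± 0.079, and without Mtrnr2l as well they were 0.241% ± 0.074 and 0.0321% ± 0.0228. Leaving the 7 rows out of the sum would raise every other row's share by 3.45% to 5.09% in the inputs and by 1.64% to 2.26% in the IP libraries.

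**Figure D2:**
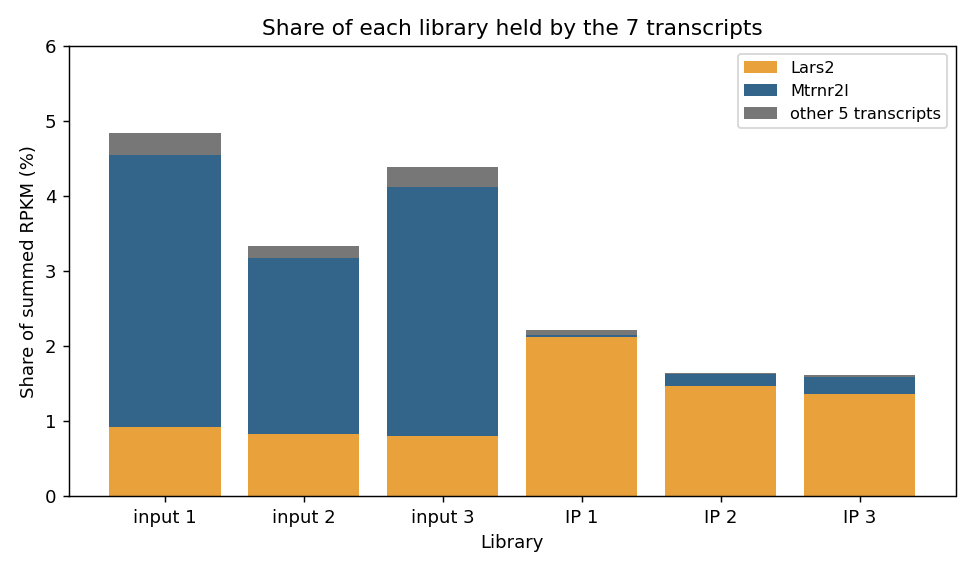
Share of summed RPKM (%) held by Lars2, Mtrnr2l and the other 5 transcripts in each of the 6 libraries, as stacked bars. Mtrnr2l fills most of the input bars, which reach 3.34% to 4.84%, and Lars2 nearly all of the IP bars, which reach 1.61% to 2.21%.

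Cdr1 was the member whose libraries agreed best among those low in IP. It stood at 208, 254 and 276 RPKM in inputs 1, 2 and 3 and at 19.3, 23.8 and 29.0 RPKM in IP 1, 2 and 3. The highest IP value was 7.19-fold under the lowest input value. Input exceeded IP 10.8-, 10.7- and 9.51-fold in the 3 challenges, and the log2 fold was -3.31 (SE 0.24), from -3.45 to -3.17 over single omissions. Both fractions were highest in challenge 3 and lowest in challenge 1, so the level moved between challenges while the ratio hardly did.

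Gm4076 and LOC100502983 moved as one. Gm4076 stood at 844, 250 and 373 RPKM in inputs 1, 2 and 3 and at 59.1, 30.7 and 43.0 RPKM in IP 1, 2 and 3. LOC100502983 stood at 99.4, 24.4 and 39.2 RPKM in the inputs and at 7.99, 3.34 and 4.11 RPKM in the IP libraries. In both rows input 1 was the highest input and IP 1 the highest IP library. Gm4076 exceeded LOC100502983 by 7.39-fold (IP 1) to 10.4-fold (IP 3), a spread of 1.41-fold over the 6 libraries, although each row itself ranged far more widely. The log2 folds were -3.30 (SE 0.44) and -3.00 (SE 0.47), and without input 1 they were -2.81 and -2.45. Whether the 2 gene models share reads was not tested.

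Pwwp2a and Snhg11 formed the other pair. Pwwp2a stood at 56.2, 69.4 and 127 RPKM in inputs 1, 2 and 3 and at 28.8, 3.85 and 7.89 RPKM in IP 1, 2 and 3. Snhg11 stood at 189, 146 and 235 RPKM in the inputs and at 101, 9.48 and 22.4 RPKM in the IP libraries. In both rows IP 1 was far above the other IP libraries, and IP 1 lay 1.95-fold (Pwwp2a) and 1.44-fold (Snhg11) under the lowest input. Input exceeded IP 1.95-, 18.04- and 16.1-fold for Pwwp2a and 1.86-, 15.4- and 10.5-fold for Snhg11 in challenges 1, 2 and 3. The log2 folds were -2.88 (SE 0.58) and -2.68 (SE 0.67), -3.61 and -3.58 without IP 1, and -2.30 and -1.94 without IP 2. Snhg11 exceeded Pwwp2a by 1.85- to 3.51-fold in every library.

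**Figure D3:**
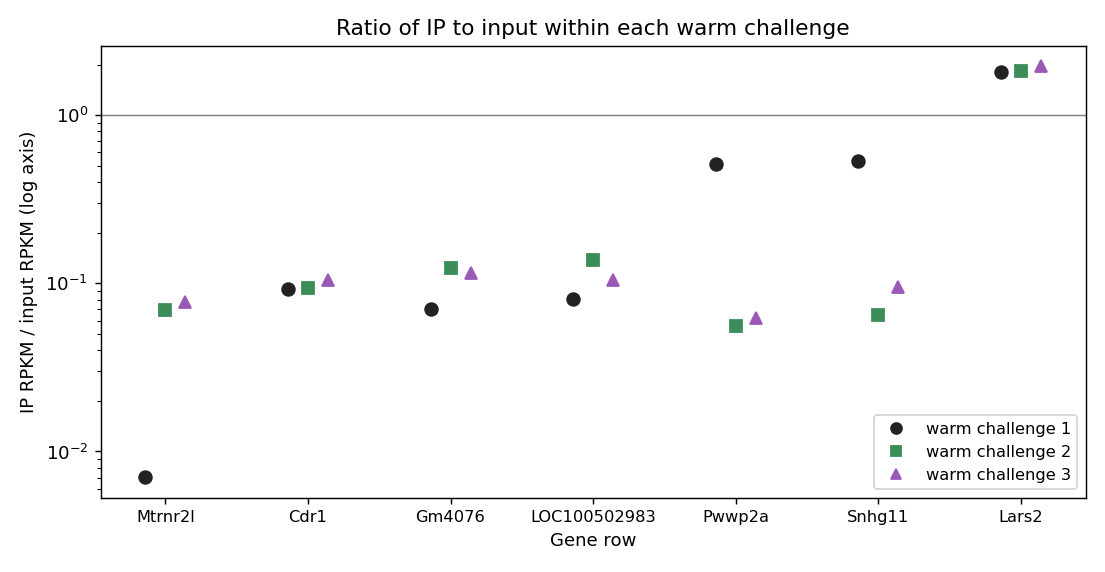
IP RPKM divided by input RPKM (log axis) within each warm challenge for the 7 transcripts, with 1 marked by a line. Lars2 lies at 1.82 to 1.95, and challenge 1 is the lowest for Mtrnr2l (0.00705) but the highest for Pwwp2a (0.513) and Snhg11 (0.536).

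**Figure D4:**
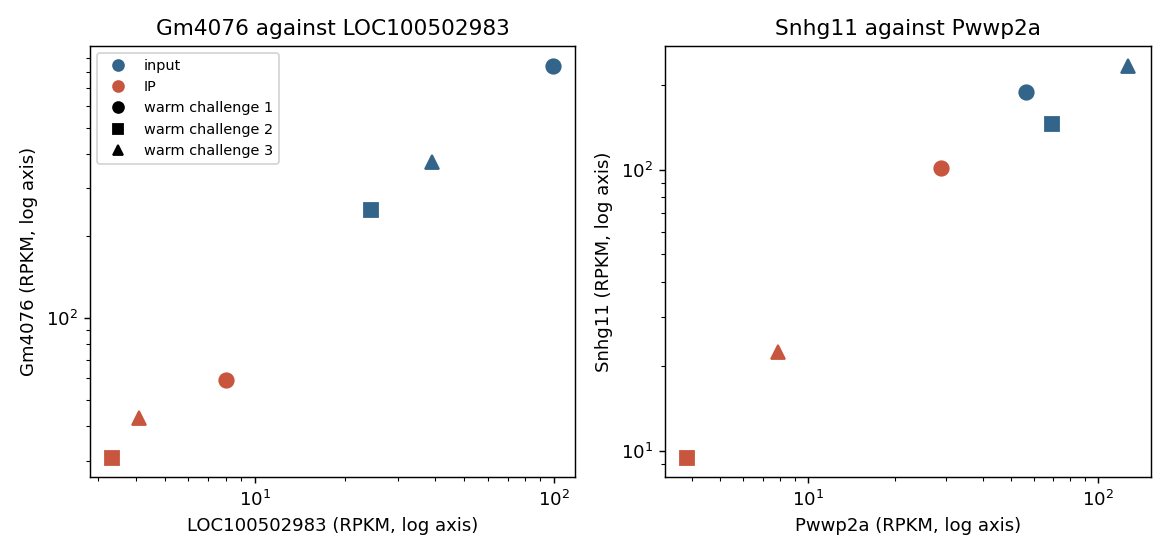
RPKM of Gm4076 against LOC100502983 and of Snhg11 against Pwwp2a (log axes), 1 point per library, with input in blue and IP in red. In both panels the libraries lie close to a line, with ratios that vary 1.41-fold and 1.90-fold over the 6 libraries.

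Warm challenge 1 therefore split the members. Mtrnr2l had its strongest depletion there, Gm4076 and LOC100502983 also had theirs (14.3- and 12.4-fold, against 7.31- to 9.54-fold in the other challenges), Cdr1 and Lars2 stayed near their other ratios, and Pwwp2a and Snhg11 had their smallest gap (1.95- and 1.86-fold lower in IP). That challenge includes IP 1, the library that stood apart, and with 1 library per fraction and challenge these differences have no replicate.

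Likeness was measured as the root mean square difference between 2 rows' log2 values over the 6 libraries, each row centred on its own mean, so it carries the same contrast that chose the members. Gm4076 and LOC100502983 were each other's nearest row (0.19), and Apod, an apolipoprotein gene, was next for both (0.52 and 0.50). Nearest to Snhg11 was Pwwp2a (0.34), followed by Mmachc (0.50), which acts in vitamin B12 handling. Nearest to Pwwp2a was Mmachc (0.29), at 94.3, 119 and 215 RPKM in the inputs and 46.6, 11.9 and 20.4 RPKM in the IP libraries, then Snhg11 (0.34). Mmachc thus repeated the high IP 1 of that pair. Nearest to Cdr1 were Mal, a myelin gene (0.38), Litaf (0.47) and Car2, a carbonic anhydrase of oligodendrocytes (0.49). Nothing was close to Mtrnr2l, whose nearest row was Cdr1 at 1.17. Nearest to Lars2 were Dom3z (0.11), the sulfotransferase gene Hs3st2 (0.12) and the transcription factor gene Zic2 (0.12), all at much lower levels, with means of 2.88 to 8.11 RPKM in input.

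Several of these nearest rows are genes of myelinating cells, and markers of such cells were mostly lower in IP, as were all members but Lars2. Likeness carries the contrast that chose the members, and Mal is itself one of the markers, so the likeness cannot tie the members to these cells. Among the IP libraries the summed oligodendrocyte markers were lowest in IP 1 (388 RPKM). Mtrnr2l and Cdr1 were also lowest there, while Pwwp2a, Snhg11, Gm4076 and LOC100502983 were highest there. Of 12 oligodendrocyte markers 9 were lower in IP and 0 higher (limma, adjusted over all rows tested), with summed levels of 1143 to 1269 RPKM in the inputs and 388 to 568 RPKM in the IP libraries. Of 10 astrocyte markers 0 passed (3 at an unadjusted p under 0.05, and 1 lower with the block), with sums of 315 to 432 and 296 to 322 RPKM. Neuronal markers, of which 15 of 17 were listed and 0 passed (5 at an unadjusted p under 0.05), summed to 5696 to 7118 RPKM in the inputs and 5587 to 8989 RPKM in the IP libraries. Of 5 microglial markers tested 0 passed (1 at an unadjusted p under 0.05), 1 of 5 ependymal markers was lower, and all 3 erythroid markers tested were higher in IP (sums of 14.1 to 50.3 against 202 to 567 RPKM). The table lists 1 of 10 endothelial markers, at 0.626 RPKM or less in every library. The part of cell types in the members' folds was not tested. Input and IP of a challenge are total and bound RNA of the same material, so a marker lower in IP does not measure cell number.

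Companion lists placed each member among its relatives, with members left out of the counts. Among 20 listed genes for mitochondrial tRNA synthetases and related subunits, Lars2 held 96.0% to 98.8% of the summed RPKM. The next highest, Gatc, part of the enzyme that makes glutaminyl-tRNA in mitochondria, had an input mean of 34.7 ± 0.98 RPKM and an IP mean of 28.0 ± 14.9 RPKM (SD over 3 libraries each), so Lars2 stood 110-fold and 252-fold above it. None of the other 19 passed the threshold by limma, and 2 had an unadjusted p under 0.05 (median log2 fold 0.00, against -0.18 for all rows tested). Those with the smallest p were Wars2, the tryptophan enzyme (log2 fold -0.57, limma adjusted p = 0.129), and Pet112l (-0.65, adjusted p = 0.200). None of 20 cytosolic tRNA synthetases passed by limma, 1 with an unadjusted p under 0.05 (median 0.16), with Aars, the alanine enzyme, at 0.64 (adjusted p = 0.129) and Tars, the threonine enzyme, at 0.42 (adjusted p = 0.242). Lars, the cytosolic counterpart of Lars2 and named after its values were seen, ranged from 8.45 to 11.4 RPKM over the inputs and from 12.3 to 15.0 RPKM over the IP libraries, a log2 fold of 0.39 (SE 0.21, limma adjusted p = 0.304). The Lars2 row was thus far above its own family in level, and neither Lars2 nor any other gene of the 2 lists passed the threshold. Which reads were counted in the Lars2 row was not tested.

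Among 18 listed genes with a PWWP domain, Pwwp2a had the second highest mean in input and stood 11th in IP. None of the other 17 passed by limma, 1 with an unadjusted p under 0.05 (median log2 fold -0.23). Zmynd11, a reader of histone H3 methylation, had -0.68 (limma adjusted p = 0.127), and Dnmt3a, a DNA methyltransferase, -0.58 (adjusted p = 0.210). Pwwp2b, the closest relative of Pwwp2a and also named after its values were seen, ranged from 2.59 to 2.93 RPKM over the inputs and from 3.04 to 5.03 RPKM over the IP libraries, a log2 fold of 0.48 (SE 0.23, limma adjusted p = 0.238). None of 15 genes of H2A.Z and the NuRD complex passed either, 1 with an unadjusted p under 0.05 (median -0.21), with Mta2 at 0.76 (adjusted p = 0.148) and H2afv at -0.62 (adjusted p = 0.210). In simulated data 17% of 100 rows shifted by 1 log2 unit were recovered, and 94% of 100 rows shifted by 3. The simulation left out the correlation between the libraries of a challenge, so its rates need not hold for the real fit. A gene without a call may still differ.

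Few noncoding genes could be set beside Snhg11. It was the only snoRNA host gene listed, and 1 of 39 symbols of other long noncoding RNAs sought was listed, A230006K03Rik. That row was lower in IP, at 8.76, 8.35 and 10.2 RPKM in the inputs and 4.22, 2.80 and 2.55 RPKM in the IP libraries (log2 fold -1.28, SE 0.23, limma adjusted p = 0.0266). Its call held in 1 of 6 omissions, that of IP 1, and was lost when libraries were scaled to a common summed RPKM (adjusted p up to 0.0614 over the alternatives that keep all libraries). Of 42 other rows that RefSeq classes as long noncoding RNA, a list formed after values were seen, 2 were lower and 0 higher in IP by limma (17 at an unadjusted p under 0.05). In that list 35 had a negative fold, with a median of -0.46, while 65.2% of all rows tested were negative.

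Rows with placeholder names, to which Gm4076 and LOC100502983 belong, were counted the same way. Of 314 other Gm rows 14 were lower and 1 higher in IP, with a median log2 fold of -0.23. Of 150 other LOC rows 18 were lower and 1 higher, or 12.7% against 4.19% of all rows, with a median of -0.60. A row admitted by the filter through the inputs alone, such as LOC100503311, can look only lower in IP. These counts and medians can therefore be partly set by the filter. With no filter 15 of 210 other LOC rows were lower and 1 higher (7.62%). Their median was then -0.46, against -0.17 for all rows. Of 660 Rik rows 31 were lower and 2 higher (5%), with a median of -0.30. With libraries scaled to a common median the LOC calls were 4 lower and 1 higher, the Gm calls 3 and 1 and the Rik calls 12 and 1, while the LOC median minus that of all rows was -0.46, against -0.42 as deposited and -0.62 (pseudocount of 0.1) to -0.14 (pseudocount of 5) over the alternatives run. Without IP 1 there were 42 Gm, 42 LOC and 86 Rik calls, and 0 to 1 Gm or LOC calls and 0 to 6 Rik calls without any other library.

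Among LOC rows LOC100504538 was lower in IP, at 33.4, 35.0 and 18.95 RPKM in the inputs and 3.72, 5.89 and 6.04 RPKM in the IP libraries (log2 fold -2.25, limma adjusted p = 0.00980), with the call kept in 4 of 6 omissions. LOC100503311 was lower (-2.02, limma adjusted p = 0.0295, and 0.0535 after quantile normalization). It stood at 7.37, 8.21 and 2.22 RPKM in the inputs and at 0.665, 0.626 and 0.368 RPKM in the IP libraries. It passed the filter on low values only through the inputs, where it was high, so its call supports nothing. LOC100503605 was higher (2.98, limma adjusted p = 0.0417, and 0.0520 with a pseudocount of 0.1). Among Gm rows Gm3696 (-1.48, adjusted p = 0.0264) and Gm3365 (-1.23, adjusted p = 0.0331, and 0.0612 with a common median) were lower and Gm6753 higher (1.67, adjusted p = 0.0411). Among Rik rows 1700026D08Rik (-2.12, limma adjusted p = 0.0459, and 0.0711 with a common median) and 1110028C15Rik (-1.62, adjusted p = 0.0290) were lower and C030019I05Rik higher (1.60, adjusted p = 0.0326). 1700026D08Rik stood at 11.7, 7.19 and 2.905 RPKM in the inputs and at 2.28, 0.193 and 0.258 RPKM in IP 1, 2 and 3. It met the filter mainly through the inputs. Its call was lost in 5 alternatives that keep all libraries (limma adjusted p up to 0.0755). Of these 9 rows, all but LOC100504538 kept their call in 1 omission only, that of IP 1. LOC100503311 passed the filter, and so was tested, in only 3 of the 6 omissions.

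**Figure D5:**
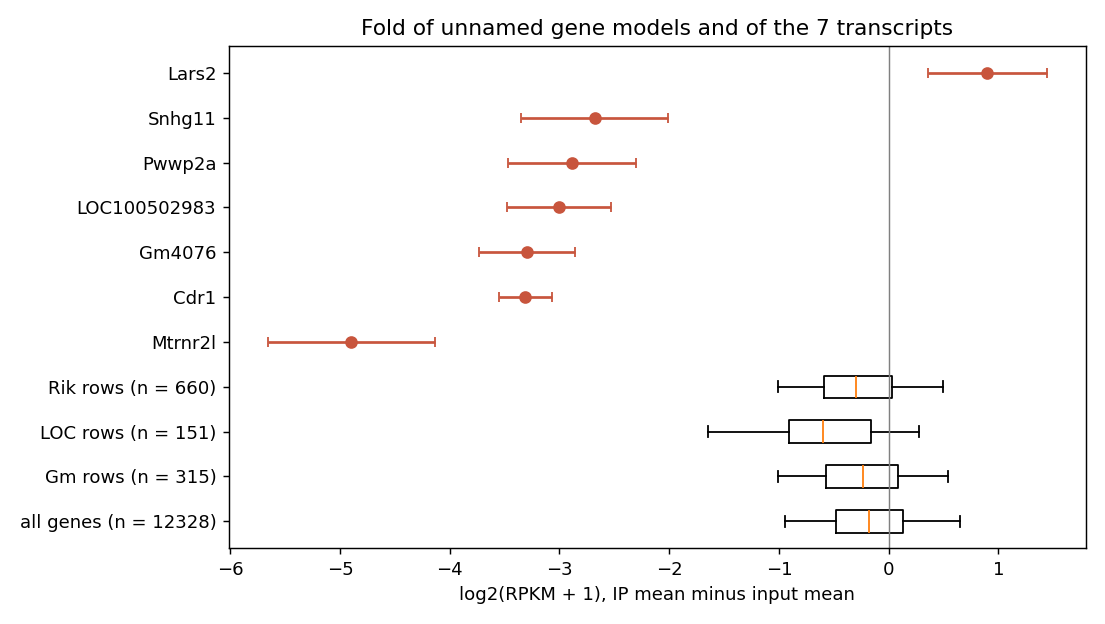
Log2 fold, IP minus input, of the 7 transcripts (points, with the SE of the fit) and of all rows tested and the Gm, LOC and Rik rows (boxes with the median and quartiles, whiskers from the 5th to the 95th percentile, members included). Lars2 lies at 0.90 and the other 6 at -4.90 to -2.68, left of the whiskers of every box.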

How the data were processed

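The authors deposited gene-level RPKM on a linear scale, 1 column per library, per the file headers. The submitters' processing notes name build mm9, while aligner, counting tool and annotation were not given in the sources used here. All listed values lie above 0.1 RPKM. An Ovation kit amplified the cDNA, per the labels' protocols, so RPKM can carry amplification bias. Values were analysed as log2(RPKM + 1) with limma 3.58.1 (mean-variance trend, two-sided, no block, Benjamini-Hochberg) in R 4.3.3, over the 12328 rows that reached 1 RPKM in 3 of the 6 libraries. Python 3.11.15 served for shares, likeness, letter counts and plots. The model was tested on simulated data. p-values measure only the spread between these libraries.

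The members, lists, naming rule and alternatives were chosen with earlier results of these data known. The text names the members, Fos and Fosb, the 3 rows most like each member (not all are printed), the highest rows, 2 non-members of each companion list, and up to 2 per direction of the Gm, LOC and Rik rows.

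The labels give input and IP the number of their warm challenge, so ratios were taken within challenges. The main fit and its p-values did not use this pairing, which entered only as the block alternative. Deviations from the group means correlated by 0.05, 0.61 and 0.27 across rows in challenges 1, 2 and 3. Alternatives were other pseudocounts, filters and scalings, the block, no trend, and omission of each library.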

Additional observations from a re-analysis of the deposited data

How the results depend on the processing

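The count of rows past the threshold was 516 and stayed within 1.5 times of that with pseudocounts of 0.1 and 5, no filter, a filter of 5 RPKM and no trend. With the warm challenge as a replicate block it was 656. Scaling lowered it to 249 (common median), 253 (quantile normalization), 218 (common summed RPKM) and 235 (common summed RPKM without the 7 members). The share of calls lower in IP was 78.7% as deposited and 51.4%, 49.0%, 59.6% and 66.0% in that order. Omitting 1 library gave 21 to 1693. The block turned no call of a companion list gene named here, and raised the members past the threshold from 5 to 6, by Snhg11. That number was 4 with a common median, 6 after quantile normalization, 2 with input 3 omitted, 6 with IP 1 omitted and 3 with any other library omitted.

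No fold of a member changed direction in any alternative run. Input and IP ranges did not overlap in any member, so omitting a library could not turn a direction. The filters, the block and the fit without trend leave a member's fold unchanged by design. The fold of Lars2 after quantile normalization (1.42) moved by more than its own pooled SD within the groups. By the same measure 111 other recomputed folds did not move, but these include the folds unchanged by design. A wide SD also hides a shift: Mtrnr2l went from -4.90 to -3.95 without IP 1 and counted as unmoved. The 7 rows' share of summed RPKM without the 135 highest other rows was 5.54% in input and 2.47% in IP. The lowest listed value was 0.101 or 0.102 RPKM in every library. Most of the long noncoding RNAs sought by symbol are not listed, which limits every count of noncoding genes. Why they are missing was not tested.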
